A study of Mus musculus with 8 samples.

Results

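Open chromatin was compared between day 8 and day 4 of PU.1 restoration in the mouse acute myeloid leukaemia line AML246. ATAC-seq was used, an assay that tags accessible DNA with adapters carried by the Tn5 transposase. Both cultures grew in medium with IL-3 and received doxycycline (Dox, 0.1 µg/mL), which per the labels restores PU.1 in these cells. At day 8 the cells had been on Dox for 8 days and at day 4 for 4 days, and total viable cells were taken by FACS at both times. The series holds 6 more libraries, from cells at day 0 before Dox, at day 12 on Dox as total cells and as a CD11b-high sort, and at 4, 8 and 12 days after Dox was withdrawn at day 12. Each of the 8 groups was 1 library, so the values describe these libraries, no spread between replicates exists and no test between days was possible. In a bulk library, a region opened in more cells and a region opened further in each cell cannot be told apart. A difference between the days and one between the library preparations cannot be told apart either.

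The authors deposited a list of peak summits for each library, 1 base per peak with 1 score. The day-8 list had 46965 summits on chromosomes 1 to 19, X and Y, and the day-4 list had 35018. Each summit was extended by 150 bp to both sides and overlapping intervals were merged across the 2 lists, for a total of 50884 regions. Their median length was 306 bp. The number compares with 68800 regions when all 8 lists were merged. A region was counted as open on a day when it held a summit of that day's list. A region without a summit was not called, which does not show that it was closed. Day-8-only regions held a summit of the day-8 list alone, day-4-only regions held one of the day-4 list alone, and shared regions held both.

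PU.1, encoded by Spi1, is an ETS-family transcription factor that binds purine-rich DNA around a GGAA core and can open nucleosome-covered sites. It is needed for macrophages, granulocytes and B cells to form, and its targets include receptors for myeloid growth factors, Fc receptors and subunits of the phagocyte oxidase. Lowered PU.1 holds myeloid progenitors in an immature state, and AML cells of such models can mature when PU.1 returns.

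The sequences of 6 gene starts give examples of regions called on a single day. They are shown because the region was called only at day 8 next to genes of myeloid or lymphoid surface receptors and of the oxidase, or only at day 4 next to a progenitor factor and at the highest-scoring day-4-only region with no day-8 summit within 1 kb. They were chosen after their values had been seen. Each is the RefSeq window from 250 bases before to 50 bases after the gene's start in GRCm38.p6, the build also called mm10, printed in the direction of the gene. Capitals mark matches to GAGGAAG, a PU.1-type core, or to TGANTCA, the site of AP-1 dimers of the Fos and Jun families. Windows without capitals held no match on either strand.
Ncf1 promoter window, chr5:134229576-134229875, minus strand: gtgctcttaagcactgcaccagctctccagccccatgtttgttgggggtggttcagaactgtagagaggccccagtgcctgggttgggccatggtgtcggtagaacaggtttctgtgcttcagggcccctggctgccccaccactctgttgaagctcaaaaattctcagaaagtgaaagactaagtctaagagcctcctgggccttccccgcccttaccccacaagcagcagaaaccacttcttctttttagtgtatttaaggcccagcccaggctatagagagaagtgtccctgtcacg
Lilra6 promoter window, chr7:3915452-3915751, minus strand: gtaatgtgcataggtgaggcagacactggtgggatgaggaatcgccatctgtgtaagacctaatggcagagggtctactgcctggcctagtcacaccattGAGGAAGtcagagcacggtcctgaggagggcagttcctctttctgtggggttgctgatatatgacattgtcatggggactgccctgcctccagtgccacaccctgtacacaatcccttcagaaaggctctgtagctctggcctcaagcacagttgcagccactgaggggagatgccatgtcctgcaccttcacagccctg
Havcr2 promoter window, chr11:46454681-46454980, plus strand: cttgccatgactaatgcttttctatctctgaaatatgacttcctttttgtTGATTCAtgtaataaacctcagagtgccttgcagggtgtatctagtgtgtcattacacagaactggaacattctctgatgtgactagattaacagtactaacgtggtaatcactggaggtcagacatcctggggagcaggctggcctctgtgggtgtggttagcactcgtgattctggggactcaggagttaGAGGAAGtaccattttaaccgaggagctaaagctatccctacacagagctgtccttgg
Il7r promoter window, chr15:9529827-9530126, minus strand: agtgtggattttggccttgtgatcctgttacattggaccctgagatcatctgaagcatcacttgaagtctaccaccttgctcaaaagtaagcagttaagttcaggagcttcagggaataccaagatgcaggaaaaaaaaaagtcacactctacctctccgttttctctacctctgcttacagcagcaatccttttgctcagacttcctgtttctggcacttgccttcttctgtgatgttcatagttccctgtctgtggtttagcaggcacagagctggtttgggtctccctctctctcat
Sox4 promoter window, chr13:28953650-28953949, minus strand: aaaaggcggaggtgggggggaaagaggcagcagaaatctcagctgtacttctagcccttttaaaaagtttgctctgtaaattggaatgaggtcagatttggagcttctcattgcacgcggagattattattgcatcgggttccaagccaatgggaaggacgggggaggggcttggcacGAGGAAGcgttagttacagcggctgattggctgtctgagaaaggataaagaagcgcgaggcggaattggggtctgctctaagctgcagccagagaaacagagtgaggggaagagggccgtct
Spef1 promoter window, chr2:131174761-131175060, minus strand: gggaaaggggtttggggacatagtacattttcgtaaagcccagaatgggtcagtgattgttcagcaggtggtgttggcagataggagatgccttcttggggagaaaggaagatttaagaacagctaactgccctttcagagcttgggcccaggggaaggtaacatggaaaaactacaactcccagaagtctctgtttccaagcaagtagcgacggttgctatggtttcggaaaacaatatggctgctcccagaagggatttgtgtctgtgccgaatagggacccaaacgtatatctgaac
The Ncf1 window belongs to the gene of the p47phox subunit of the phagocyte NADPH oxidase. The day-8 summit lay at base 241 of the window, counted from 1 at its 5′ end, with a score of 17.1. It was also called at day 12, with a score of 7.02, and in no other library. Lilra6 encodes an immunoglobulin-like receptor of a family with near-identical members, so its reads may be shared with copies. Its day-8 summit lay at base 139 with a score of 17.0, after a GAGGAAG match starting at base 101, and both day-12 libraries called the region. Havcr2 encodes the receptor TIM-3. Its day-8 summit, with a score of 13.7, lay at base 144 between an AP-1 match starting at base 51 and a GAGGAAG match starting at base 243. Il7r encodes the alpha chain of the interleukin-7 receptor, and its summit at base 229 had a score of 12.4. Neither day 0 nor 8 or 12 days off Dox had a call in any of these 4 regions. Sox4, a progenitor transcription factor, had a day-4 summit at base 175, directly before a GAGGAAG match on the printed strand starting at base 179. Its score was 8.1 at day 4 and 17.5 at day 0, no call was made at day 8 or in either day-12 library, and it was called again at all 3 times off Dox. Spef1, a gene of a protein of cilia and flagella, had a day-4 summit at base 202 with a score of 29.9.

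Most open regions were common to both days, and the day-8 list added more regions than the day-4 list. Of the 50884 regions, 16163 were day-8-only (31.8%, 95% interval 31.4 to 32.2), 4437 were day-4-only (8.72%, 8.48 to 8.97) and 30284 were shared (59.5%, 59.1 to 59.9). The intervals are exact Clopper-Pearson intervals and cover counting error only. In shared regions the best summits of the 2 lists lay a median of 20 bp apart, and 74.2% lay within 50 bp of each other. When the day-8 list was shortened to its 35018 highest scores, 7715 regions were day-8-only (18.2%), 7603 were day-4-only (17.9%) and 27118 were shared (63.9%). Both lists then held 35018 summits, so the numbers of regions called on a single day had to be close. They do not compare the days. This step dropped 11947 day-8 summits with scores below about 6.6, removed 8448 day-8-only regions and turned 3166 shared regions into day-4-only ones. The day-4 list kept scores down to 1.39, so a weak region was harder to keep at day 8 than at day 4.

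Regions called on a single day were mostly of low score. Day-8-only regions had a median score of 6.38 in the day-8 list, against 18.0 for shared regions in that list, and 3382 of them (20.9%) reached a score of 10. Day-4-only regions had a median of 5.88 in the day-4 list, against 15.0 for shared regions there, and 836 of them (18.8%) reached 10. Scores, read as the −log10 of a p or q, move with depth, so classes were compared within a list. Where scores of 1 region are listed for several libraries below, they do not measure a change between them. Among the 5000 highest-ranked day-8 regions, 1.58% were not called at day 4, and among ranks 40001 to 45000 the share was 74.4%. Among the 5000 highest-ranked day-4 regions, 1.80% were not called at day 8, and among ranks 30001 to 34721 the share was 37.9%. A smaller part had a near neighbour: 2720 day-8-only regions had a day-4 summit within 1 kb, and 13443 had none. Of the day-4-only regions, 1197 had a day-8 summit within 1 kb, and 3240 had none. At Maff and Mafg, genes of small MAF factors that pair with AP-1-type partners, the summits lay 477 bp and 510 bp apart on the 2 days, so that each gene gave 1 day-8-only and 1 day-4-only region.

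**Figure D1:**
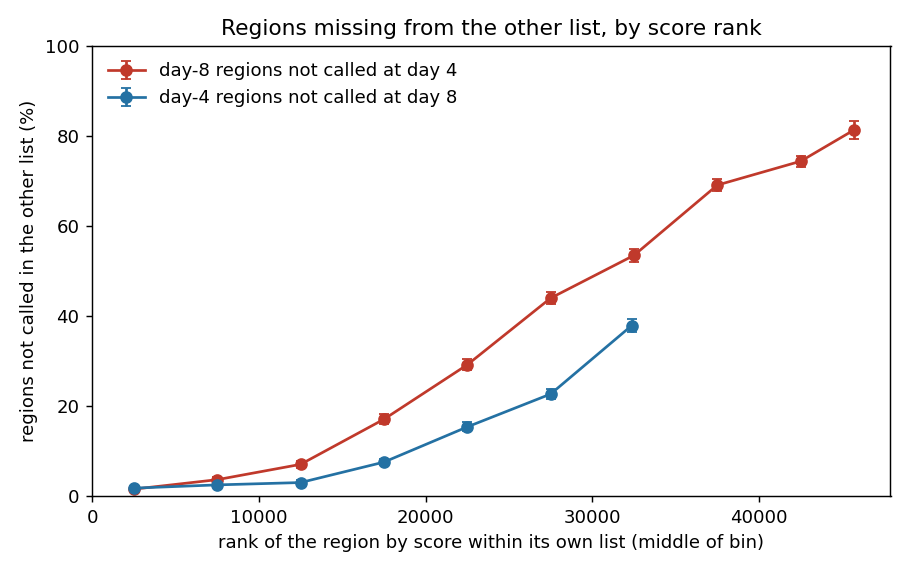
Share of regions not called in the other full list (vertical axis, %) against the rank of the region by score in its own list (horizontal axis, bins of 5000 regions), for day 8 in red and day 4 in blue, with 95% exact intervals. Both lines start below 2% and climb, to 81.4% in the last day-8 bin and 37.9% in the last day-4 bin.

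Regions called on a single day lay away from gene ends more often than shared regions. Of day-8-only regions, 12.5% (12.0 to 13.0) lay within 1 kb of either end of a protein-coding gene, 48.0% lay inside a gene beyond that distance and 39.5% lay outside genes. Of day-4-only regions, 16.1% (15.0 to 17.2) were near a gene end, 42.0% inside and 41.9% outside. Of shared regions, 31.9% were near a gene end. With lists of equal length, 14.5% (13.8 to 15.3) of day-8-only, 15.0% (14.2 to 15.8) of day-4-only and 34.1% of shared regions were near a gene end, and the intervals of the single days overlapped. These shares stood further apart when both lists were cut to a score of at least 10, at 13.2% of day-8-only and 22.1% of day-4-only regions. After that cut, a single-day region could still hold a weaker summit of the other day. The day-8-only share ranged over the autosomes and X between 28.3% on chromosome 11 and 36.7% on chromosomes 12 and 16. The day-4-only share ranged between 5.86% on chromosome 19 and 10.6% on chromosome 5.

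The 6 libraries that took no part in forming the classes placed day-8-only regions nearer to day 12 and day-4-only regions nearer to day 0. Of day-8-only regions, 25.6% were open at day 0 and 34.5% at day 12. Of day-4-only regions, 36.7% were open at day 0 and 15.7% at day 12. Of shared regions, 80.0% were open at day 0 and 80.1% at day 12. The day-0 and day-12 lists held 36041 and 35113 summits, so their lengths were close. With day-8 and day-4 lists of equal length, 50.8% of day-8-only and 24.0% of day-4-only regions were open at day 12, whereas 32.5% of day-8-only and 45.3% of day-4-only regions were open at day 0. The CD11b-high sort at day 12, which keeps cells with the myeloid integrin encoded by Itgam, gave values close to those of total day-12 cells, at 52.6% of day-8-only and 26.0% of day-4-only regions. The same order of classes, with day-8-only regions open more often at day 12 and day-4-only regions more often at day 0, held under all 6 alternatives tried.

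After withdrawal of Dox, which class was open more often depended on the settings at 8 and 12 days off. At 4 days off, 65.5% of day-8-only and 53.3% of day-4-only regions of the equal-length lists were open, and that library held the longest list, with 51060 summits. At 8 days off the shares were 45.7% of day-8-only and 46.7% of day-4-only regions. At 12 days off they were 29.7% of day-8-only and 29.4% of day-4-only regions, in the shortest list, with 31867 summits. With both lists cut to a score of at least 10, 65.6% of day-8-only and 73.7% of day-4-only regions were open at 8 days off. The shares at 12 days off were then 48.2% of day-8-only and 56.9% of day-4-only regions. With the top 20000 summits of each list, the shares were 71.3% of day-8-only and 80.4% of day-4-only regions at 8 days off, and 56.9% and 65.7% at 12 days off. At 4 days off day-8-only regions stayed the more often open in both, at 80.1% against 73.0% and at 83.9% against 79.8%. List length moves with these shares, and its part in them was not tested.

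**Figure D2:**
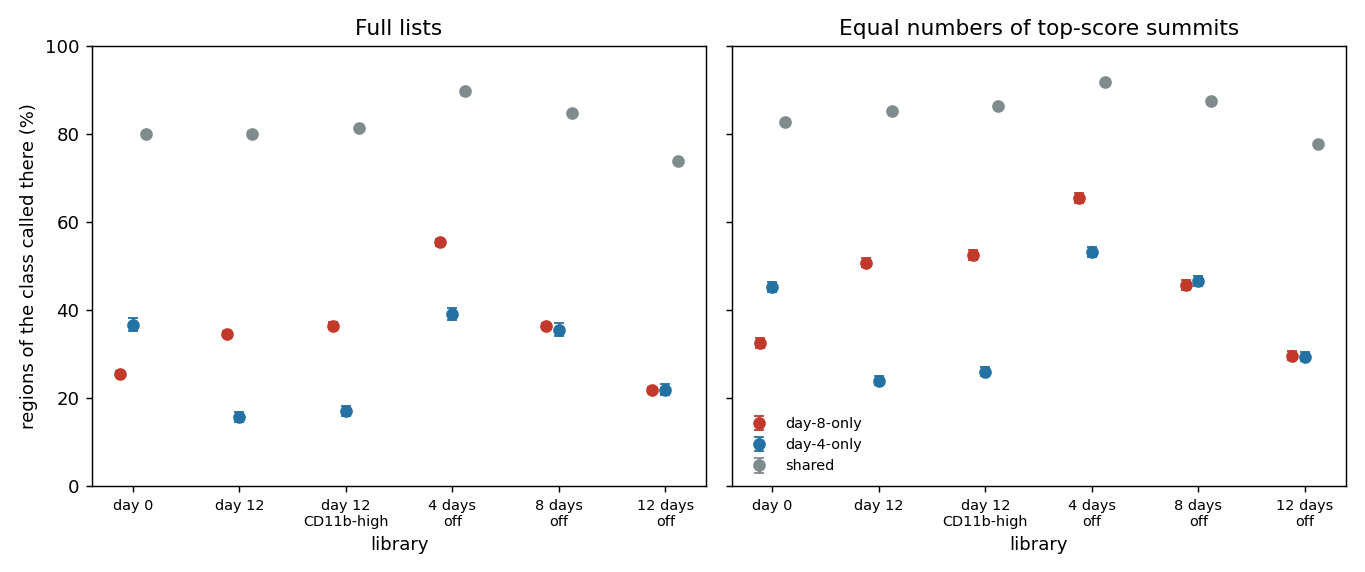
Share of day-8-only (red), day-4-only (blue) and shared (grey) regions that were open in each of the 6 other libraries (vertical axis, %), with 95% exact intervals, from full lists on the left and from equal numbers of top-score summits on the right. In both panels red lies below blue at day 0 and above it in both day-12 libraries. Red and blue lie close at 8 and 12 days off, and grey lies above both in every library.

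Day-8-only regions could be divided by their calls before and after. In the full lists, 3692 of the 16163 (22.8%) were open at day 12 and not at day 0, 2252 (13.9%) at day 0 and not at day 12, 1882 (11.6%) at both, and 8337 (51.6%) at neither. Of the 4437 day-4-only regions, 308 (6.94%) were open at day 12 and not at day 0, 1241 (28.0%) at day 0 and not at day 12, 389 (8.77%) at both, and 2499 (56.3%) at neither. A call in no other library was made for 3570 day-8-only regions (22.1%) and 1461 day-4-only regions (32.9%). Of the day-8-only regions called at day 12 and not at day 0, 57.0% were open at 4 days off, 32.4% at 8 days off and 16.7% at 12 days off. Of those called at day 0 and not at day 12, 77.3% were open at 4 days off, 64.5% at 8 days off and 41.7% at 12 days off.

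The 6 day-8-only regions with the highest scores and no day-4 summit within 1 kb lay by Atrnl1, Enoph1, Prkab1, Tmem230, Cdc42bpb and Htr7. The region inside Atrnl1, a gene of an attractin-like protein, scored 41.3 at day 8, 26.7 at day 12 and 11.1 at day 0. Prkab1 encodes a regulatory subunit of AMP-activated kinase, and its region, 4704 bp from the gene, scored 37.0 at day 8, 16.8 at day 0 and 24.6 at day 12. The region inside Htr7, a serotonin receptor gene, scored 35.0 at day 8, 24.0 in the CD11b-high sort and 11.3 in total day-12 cells, without a day-0 call. The Enoph1 region lay inside that gene, 49 bp from one of its ends, and the nearest day-4 summit was 1006 bp away. Of these 6 regions, 4 had a day-0 call and all 6 had calls in both day-12 libraries.

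The 6 day-4-only regions with the highest scores and no day-8 summit within 1 kb lay by Spef1, Arel1, Camsap2, Tank and Pvr, with 1 region farther than 100 kb from any protein-coding gene. All 6 were called at day 0, with scores of 8.73 to 22.2. The Spef1 region, 49 bp from the gene, scored 15.5 at day 0 and 29.9 at day 4 and was not called at day 8 or in either day-12 library. The region 84018 bp from Tank, a gene of an adaptor of TRAF signalling, scored 8.73 at day 0 and 22.3 at day 4 and was likewise not called at day 8 or day 12. The Arel1 region, 17 bp from an end of this ubiquitin ligase gene, scored 19.3 at day 0, 26.9 at day 4 and 5.14 at day 12. The Pvr region, inside the gene of the poliovirus receptor CD155, scored 21.7 at day 4 and 23.5 at 8 days off.

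**Figure D3:**
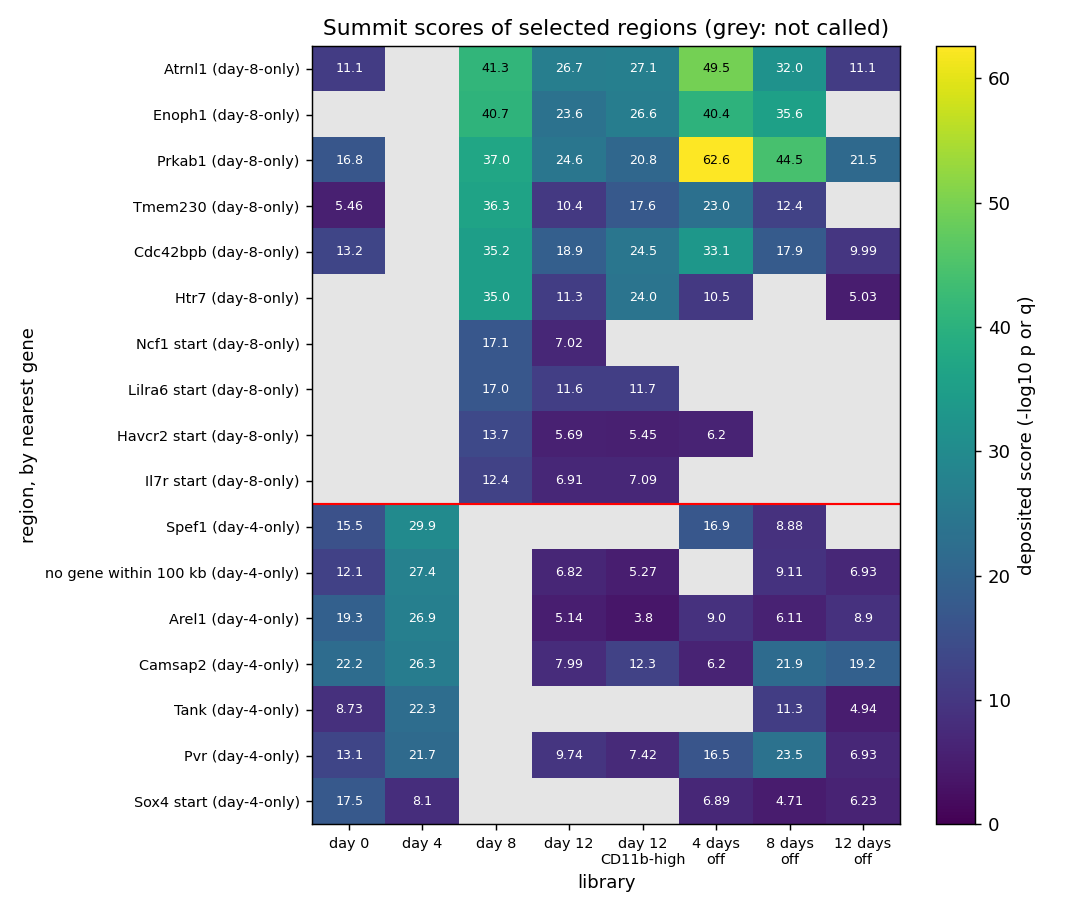
Deposited scores, −log10 of p or q, of selected regions (rows, named by the nearest gene, day-8-only above the red line and day-4-only below it) in the 8 libraries (columns), with grey where no summit was called. The day-4 column is grey for every day-8-only row and the day-8 column for every day-4-only row by choice of the regions. The day-0 column is filled in all 7 day-4-only rows and in 4 of the 10 day-8-only rows. Scores move with depth, so colours do not measure a change between columns.

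A protein-coding gene lay within 100 kb of 48168 regions. Each of these was given to the closest such gene, and 15182 genes received at least 1. Among regions assigned to a gene, 31.2% were day-8-only and 8.67% day-4-only in the full lists, and 17.8% were day-8-only and 17.8% day-4-only with lists of equal length. The median gene had a difference of 0 between its numbers of day-8-only and day-4-only regions on either basis. With lists of equal length, Thsd7b had 8 day-8-only and 1 day-4-only regions, Prkg1, the cGMP-dependent kinase gene, 7 and 0, and Tacc2 7 and 1. St6galnac3 and its neighbour St6galnac5, both genes of sialyltransferases that act on gangliosides and glycoproteins, followed, with 7 and 1 at St6galnac3 and 6 and 0 at St6galnac5. Pde4d, which encodes a cAMP phosphodiesterase, had 8 and 3, and Runx2, a transcription factor best known from bone, had 7 and 2. D5Ertd579e and Rere each had 6 and 1, and Specc1l had 5 and 0, as 1 of 11 genes tied at a difference of 5. In the full lists the same 10 genes had between 5 and 13 more day-8-only than day-4-only regions. Several are long genes with many regions, and St6galnac3 had 25 in all.

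At the other end, with lists of equal length, Sfi1 had 1 day-8-only and 11 day-4-only regions, Bcor, a BCL6 corepressor gene, 1 and 9, and Zfp978 1 and 8. Gm5373 and Dynlt1b had 0 and 6 each, and Ctif 1 and 6. A530032D15Rik, Gm40469, Hes1, a Notch target gene, and Msi2, an RNA-binding protein gene of stem cells, had 0 and 5 each. The difference was smaller or turned round in the full lists for all 10. Sfi1 had 5 day-8-only and 6 day-4-only regions there, Bcor 6 and 3, Zfp978 3 and 6, Ctif 4 and 1, Hes1 1 and 1 and Msi2 2 and 2. For Bcor, Ctif, Hes1 and Msi2 the day-4-only regions at equal length were largely shared regions whose day-8 summit fell below the kept scores. Sfi1, Zfp978, Dynlt1b and A530032D15Rik lie at loci with near-identical copies, where short reads may not be placed uniquely, and their values are uncertain. How the aligner treated such reads was not stated.

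**Figure D4:**
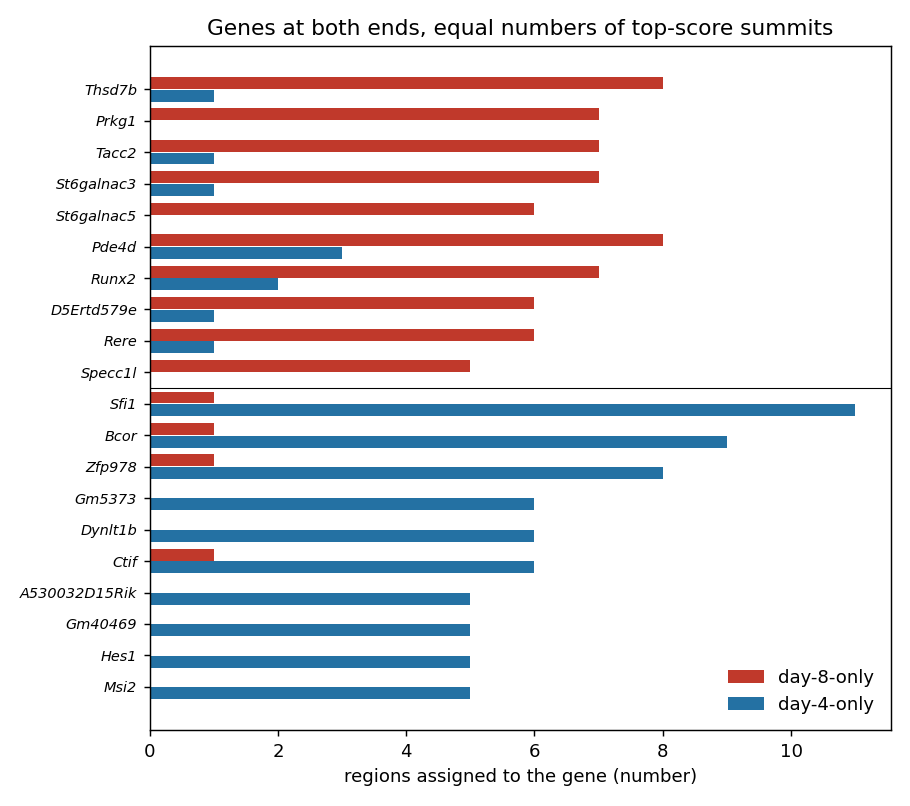
Number of day-8-only regions (red) and day-4-only regions (blue) given to each named gene, the 10 leading toward day 8 above and the 10 leading toward day 4 below, from equal numbers of top-score summits. The upper 10 genes have 5 to 8 day-8-only regions and the lower 10 have 5 to 11 day-4-only regions.

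Of the 4 loci checked in every list, Spi1, Itgam and Kit had regions open on both days, and Csf1r did not. Spi1 had 4 shared regions and 1 day-8-only region. The shared region inside the gene 685 bp from one of its ends scored 39.8 at day 8 and 35.4 at day 4, on scales that differ between lists, and was called in all 8 libraries. The day-8-only region, inside the gene at 2245 bp from an end, at chr2:91113364-91113664, scored 7.43 at day 8, 6.82 at day 12, 2.32 in the CD11b-high sort and 18.0 at 4 days off, with no day-0 call. Itgam had 3 shared regions. Kit, the stem cell factor receptor gene, had 3 shared, 2 day-8-only and 1 day-4-only region, and all 3 unshared ones scored below 6. Csf1r, the macrophage colony-stimulating factor receptor gene, had 1 day-4-only region with a score of 2.86. Among markers of cell identity, Mpo had 1 region open at day 8 and 1 at day 4, Cd34 had 11 at day 8 and 8 at day 4, and Elane and the erythroid factor gene Gata1 had none on either day. The T cell gene Cd3e had 2 at day 8 and 2 at day 4, and Pax5, the B cell factor gene, had 1 at day 8 and 3 at day 4. These are accessible regions and not RNA, and an open region near a lineage gene does not show the lineage.

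Genes known as PU.1 targets had shares whose intervals included those over all genes. Their 72 regions held 20 day-8-only (27.8%, 17.9 to 39.6) and 8 day-4-only (11.1%, 4.92 to 20.7) regions in the full lists, against 31.2% and 8.67% over all genes. With lists of equal length they held 8 (13.3%, 5.94 to 24.6) and 13 (21.7%, 12.1 to 34.2) of 60, against 17.8% and 17.8% over all genes. Ncf1 had 3 day-8-only and 0 day-4-only regions on either basis, with day-8 scores of 17.1, 12.4 and 13.1. The last 2 were also called at day 0, and the one scoring 13.1 lay 445 bp from a day-4 summit. Fcgr3, an Fc receptor gene, had 4 and 0 in the full lists, of which 1 reached the score needed in the shorter list. Csf2ra, a subunit of the GM-CSF receptor, had 3 and 0 and then 1 and 0. Csf3r, the G-CSF receptor gene, stood apart with 0 day-8-only and 3 day-4-only regions, and 0 and 4 with equal length. Its 3 day-4-only regions scored 3.76, 4.30 and 5.88.

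The oxidase and lysosome genes had 27 day-8-only (31.0%) and 5 day-4-only (5.75%) of 87 regions in the full lists, and 13 (17.8%) and 10 (13.7%) of 73 with equal length, near the values over all genes. Within them, Ncf4, the gene of the p40phox oxidase subunit, had 2 day-8-only regions, with scores of 22.9 and 19.8, and both were called in both day-12 libraries. The day-8 summit of the first lay 442 bp from a day-4 summit. Ctsd, a lysosomal protease gene, had 4 day-8-only and 0 day-4-only regions in the full lists and 0 and 0 at equal length.

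Neutrophil and granule genes were the list with the lowest day-8-only share at equal length, with 1 of 29 regions (3.45%, 0.0873 to 17.8) day-8-only and 11 (37.9%, 20.7 to 57.7) day-4-only. Over all genes both shares were 17.8% at equal length. In the full lists neutrophil and granule genes had 11 day-8-only (28.2%, 15.0 to 44.9) and 7 day-4-only (17.9%, 7.54 to 33.5) of 39. Both intervals included the values over all genes, 31.2% and 8.67%. Csf3r gave 4 of the 11 day-4-only regions at equal length, where 1 gene of the list leaned toward day 8 and 6 toward day 4. Ctsg had 3 day-8-only and 0 day-4-only regions in the full lists, and 1 and 0 at equal length. Cebpe, a factor of late granulocyte maturation, had 2 day-4-only and 0 day-8-only regions in the full lists. The stronger scored 14.2 at day 4 and 15.8 at day 0, was not called at day 8, and scored 2.72 at day 12. Monocyte and macrophage genes had 4 day-8-only (10.3%) and 7 day-4-only (17.9%) of 39 regions at equal length, and 11 and 5 of 46 in the full lists. Dendritic cell genes had 6 and 4 of 29, eosinophil genes 4 and 3 of 18, and mast cell and basophil genes 6 and 8 of 30, all at equal length. The intervals of these last 4 lists reached the values over all genes.

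**Figure D5:**
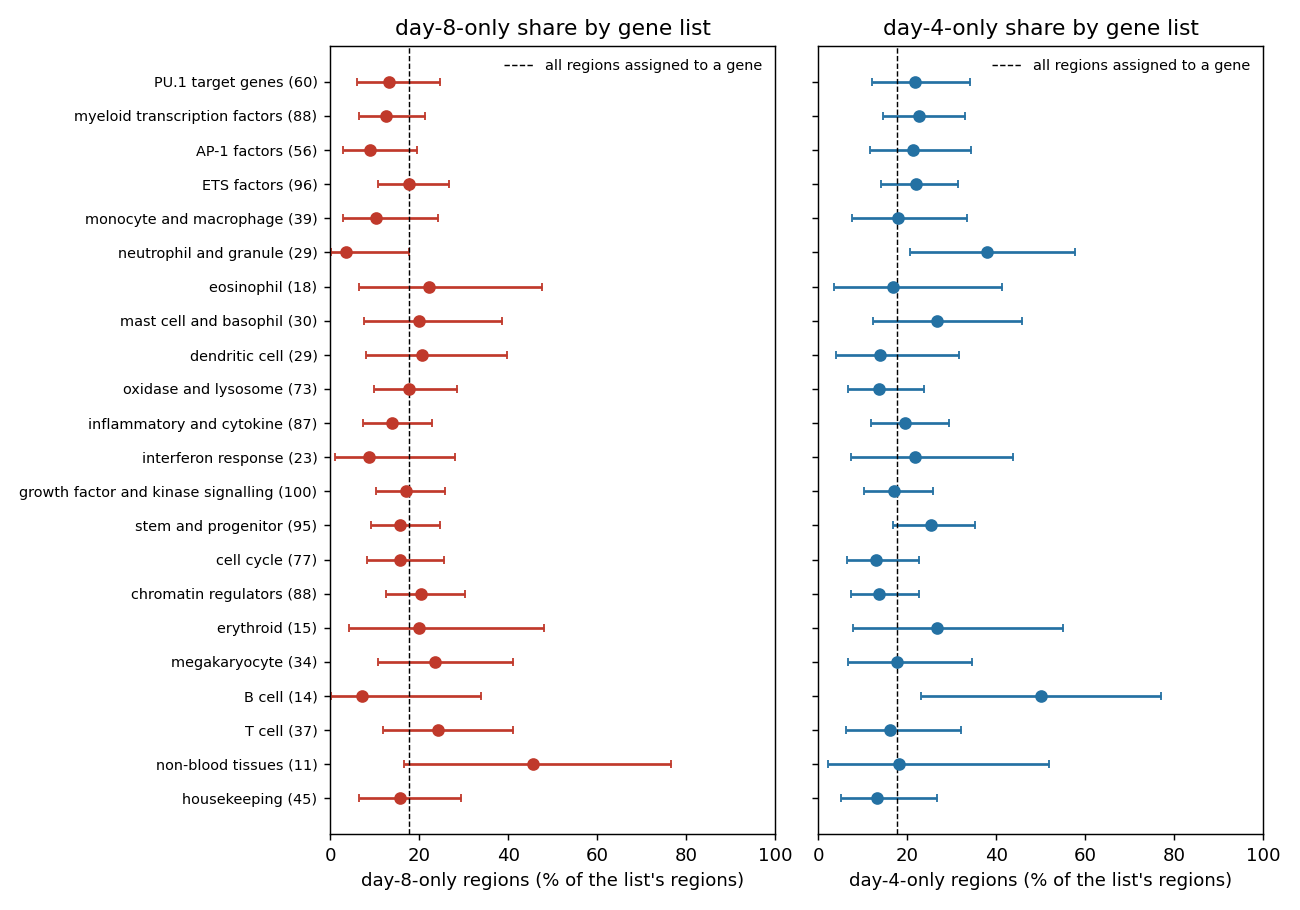
Share of day-8-only regions (left, red) and of day-4-only regions (right, blue) among the regions of each gene list (rows, number of regions in brackets), from equal numbers of top-score summits, with 95% exact intervals and the share over all regions assigned to a gene as a dashed line. The neutrophil and granule list lies to the right of the line for day 4, as does the B cell list with 14 regions, and most other intervals cross the line.

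Transcription factor genes were not set apart from all genes beyond their counting intervals at equal length, where 17.8% of all regions given to a gene were day-8-only and 17.8% day-4-only. Myeloid factor genes had 11 day-8-only (12.5%, 6.41 to 21.3) and 20 day-4-only (22.7%, 14.5 to 32.9) of 88 regions at equal length, and 28 (26.7%) and 12 (11.4%) of 105 in the full lists. Runx1, a core haematopoietic factor, had 7 day-8-only and 0 day-4-only regions in the full lists and 3 and 0 at equal length, where the 3 scored 9.62, 11.6 and 10.8 and were called at day 12 but not at day 0. Gfi1, a repressor that granulocytes need to form, had 1 day-8-only region, with a score of 10.8, and 3 day-4-only ones. Its day-8-only summit lay 361 bp from a day-4 summit, and 1 of its day-4-only regions scored 3.2. Cebpb had 3 and 0 in the full lists and 0 and 3 at equal length, so its direction rested on list length. The AP-1 genes had 5 (8.93%, 2.96 to 19.6) and 12 (21.4%, 11.6 to 34.4) of 56 at equal length. In the full lists they had 11 (17.7%, 9.2 to 29.5) and 6 (9.68%, 3.63 to 19.9) of 62. That full-list day-8-only interval lay below the 31.2% over all genes, whereas the day-4-only interval included the 8.67% over all genes. The ETS family, to which PU.1 belongs, had 17 and 21 of 96 at equal length, near the 17.8% over all genes. Its members Etv6, Fli1 and Erg had 7 and 1, 5 and 0, and 5 and 1 in the full lists, but 3 and 2, 2 and 2, and 4 and 4 at equal length.

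Stem and progenitor genes had 15 day-8-only (15.8%, 9.12 to 24.7) and 24 day-4-only (25.3%, 16.9 to 35.2) of 95 regions at equal length. Both intervals included the 17.8% over all genes. In the full lists they had 37 (31.6%) and 12 (10.3%) of 117, near the 31.2% and 8.67% over all genes. With lists of equal length, 4 stem and progenitor genes leaned toward day 8 and 8 toward day 4. In the full lists Bcl2 had 4 day-8-only and 0 day-4-only regions, and Cd34 and Lmo2 had 3 and 0 each. Sox4 had 2 day-4-only regions with scores of 8.1 and 7.16, both called at day 0 and in neither day-12 library, and a weak day-8-only one. Myb, a factor that keeps progenitors cycling, had 3 day-4-only regions, with scores of 11.1, 4.93 and 8.95, and 2 day-8-only regions, with scores of 7.43 and 6.38. The Myb regions scoring 11.1 and 8.95 at day 4 scored 8.87 and 14.0 at day 0. Cell cycle genes had 12 and 10 of 77 at equal length, with Cdk6 at 5 day-8-only and 1 day-4-only in the full lists and 3 and 2 at equal length.

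Signalling and immune response genes had intervals that reached the values over all genes at equal length. Growth factor and kinase genes had 17 day-8-only and 17 day-4-only of 100 regions, inflammatory and cytokine genes 12 and 17 of 87, and interferon response genes 2 (8.70%, 1.07 to 28.0) and 5 (21.7%) of 23. Lyn, a Src-family kinase gene, had 7 day-8-only and 0 day-4-only regions in the full lists, with day-8 scores between 4.68 and 11.3, and 3 and 1 at equal length. A region by Stat5b, which carries cytokine signals including that of IL-3, scored 18.1 at day 8 and 11.8 at day 12, without a call at day 0 or day 4. A region by Irf1, an interferon regulatory factor gene, scored 15.0 at day 8 and 9.18 at day 12 and lay 422 bp from a day-4 summit.

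Chromatin regulators had the lowest day-4-only share in the full lists, with 45 of 115 regions day-8-only (39.1%, 30.2 to 48.7) and 4 day-4-only (3.48%, 0.956 to 8.67). At equal length they had 18 (20.5%) and 12 (13.6%) of 88. Hdac9, a class II histone deacetylase gene, had 8 day-8-only and 0 day-4-only regions and Hdac4 6 and 0 in the full lists, and Tet2, which oxidises methylated cytosine, had 5 and 1. Chd7, a chromatin remodeller gene, had 6 and 0 in the full lists and 1 and 4 at equal length. At equal length Hdac9 had 3 and 1, Hdac4 2 and 1 and Tet2 3 and 2. The T cell list had 22 (44.0%) and 3 (6.0%) of 50 in the full lists and 9 and 6 of 37 at equal length, with Themis at 5 and 1, Gata3 at 4 and 0 and Il7r at 3 and 0 in the full lists, and at 2 and 1, 1 and 0 and 2 and 0 at equal length. The B cell list had 1 day-8-only and 7 day-4-only (50%, 23.0 to 77) of 14 regions at equal length, and 3 of these 7 lay at Pax5. In the full lists it had 3 day-8-only (18.8%) and 5 day-4-only (31.2%, 11.0 to 58.7) of 16, against 31.2% and 8.67% over all genes. The megakaryocyte list had 8 and 6 of 34, the erythroid list 3 and 4 of 15, the non-blood list 5 and 2 of 11 and the housekeeping list 7 and 6 of 45 at equal length. The non-blood list thus had the highest day-8-only share of the lists, 45.5% (16.7 to 76.6), on few regions.

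At gene starts, 770 RefSeq promoter windows of 10927 that overlapped a region (7.05%) did so in a day-8-only region and 305 (2.79%) in a day-4-only region, out of 32851 windows. GAGGAAG, searched on both strands, was present in 17.5% (14.9 to 20.4) of day-8-only windows, 15.1% (11.3 to 19.6) of day-4-only windows, 13.3% of shared windows and 13.6% of all windows. TGANTCA, which reads the same on both strands, was present in 9.09% (7.16 to 11.3) of day-8-only, 6.23% (3.79 to 9.56) of day-4-only, 4.31% of shared and 7.81% of all windows. Windows that overlapped no region held GAGGAAG in 13.6% and TGANTCA in 9.37%. The C/EBP motif TTGCNNAA was in 10.4% of day-8-only and 11.1% of day-4-only windows, against 10.8% of all windows. The GATA motif AGATAA was in 8.44% and 8.85%, against 11.2% of all windows. The RUNX motif TGTGGT was in 16.0% and 13.8%, against 16.8% of all windows. For each motif the intervals of day-8-only and day-4-only windows overlapped. Each motif was searched on its own, so matches of different motifs may share bases. Base composition moved with the classes, at a median GC content of 57.7% in day-8-only, 60.7% in day-4-only, 62.0% in shared and 52.7% in all windows, and its part in the motif shares was not tested.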

How the data were processed

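ATAC-seq libraries of total viable AML246 cells at day 8 and day 4 on Dox were compared, 1 library each. The authors deposited a summit list per library, made with MACS2 and Picard 2.14.0 on mm10, per the submitters' processing notes. Read depth, aligner and the version of MACS2 were not stated. The deposited score was taken as the −log10 of a p or q value, since the lowest scores lay at a threshold of 0.05. The labels' extraction protocol also mentions ChIP, and the libraries were taken as ATAC-seq from the series' design and library kit.

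Regions, nearest genes and promoter windows were computed in Python 3.11.15 with pandas 2.3.3, numpy 2.4.6 and scipy 1.17.1, and the steps were tested on simulated lists. Summits on other contigs, 95 at day 8 and 121 at day 4, were left out. Genes came from a RefSeq table of GRCm38.p6 without strand, so a gene end is either end, and 320 of 322 genes in 22 lists matched. A total of 28 genes stood in more than 1 list. The members and lists were chosen with earlier results of these data known. Named were the 10 genes at each end of day-8-only minus day-4-only regions at equal length, with ties broken by number of regions, up to 4 members per list, Spi1, Itgam, Kit and Csf1r, the 6 regions of highest score per single day without a neighbour within 1 kb, and the 2 strongest shared regions near a gene end. Further members and promoter examples were chosen after their values had been seen. The alternatives were equal list length, a score of at least 10 in both lists, and the top 20000 summits of each list. Further alternatives were extensions of 75 bp and 250 bp, and no summit of the other list within 1 kb. Exons, introns and motifs at summits away from gene starts were not analysed here. Some items that the naming rule selects are left out of this text.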

Additional observations from a re-analysis of the deposited data

How the results depend on the processing

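The 6 alternatives moved counts and shares without turning the order between day 0 and day 12. The number of day-8-only regions, 16163 in the full lists, was 7715 with equal numbers. It was 8355 with both lists cut to a score of at least 10 and 4404 with the top 20000 summits of each list. The number of day-4-only regions, 4437 in the full lists, was 7603, 2876 and 4398 under those settings. With equal numbers and with the top 20000, lists of equal length make the numbers of both days close by construction. Under these cuts a region also counted as single-day where a weaker summit of the other list had been dropped. Of the single-day regions of the full lists, 3382 at day 8 and 836 at day 4 reached a score of 10. Shared regions numbered 17956 with a score of at least 10 and 15588 with the top 20000. The shared percentage, 59.5% in the full lists, was 63.9% with equal numbers, 61.5% with a score of at least 10, 63.9% with the top 20000, 53.6% with an extension of 75 bp, 62.6% with 250 bp and 64.5% without neighbours within 1 kb.

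In that order of settings, day-8-only regions near a gene end came to 14.5%, 13.2%, 14.7%, 14.8%, 9.09% and 6.22%, and day-4-only regions to 15.0%, 22.1%, 23.7%, 21.1%, 11.9% and 7.41%. Day-8-only regions open at day 12 came to 50.8%, 75.7%, 86.8%, 30.4%, 35.4% and 33.4%, and open at day 0 to 32.5%, 51.8%, 56.1%, 23.4%, 27.4% and 25.4%. Day-4-only regions open at day 12 came to 24.0%, 46.0%, 59.4%, 17.6%, 14.1% and 11.9%, and open at day 0 to 45.3%, 76.0%, 80.5%, 32.1%, 39.5% and 36.2%. Of the day-8-only regions of the full lists that reached a score of 10, 37.4% were open at day 0 and 67.6% at day 12. For the day-4-only regions of the full lists that reached 10, the shares were 63.4% at day 0 and 35.4% at day 12.

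The difference per gene turned its sign for Pde4d to -2 with the top 20000, for Bcor to 3 in the full lists and 1 with a score of at least 10, for Gm5373 to 1 with a score of at least 10 and 1 with the top 20000, for Ctif to 3 in the full lists and 1 with a score of at least 10, and for Msi2 to 2 with a score of at least 10. The cause was not tested. Of the counts per gene list under an alternative, 121 moved and 143 stayed within 1.5 times. Read depth is not known, so the size of a difference that these lists could show was not measured. No paired analysis was possible because each group was 1 library and no result comes from a test.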

Other observations

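The shared regions near a gene end with the highest day-8 scores lay at Lars2 and Pa2g4. Lars2 encodes a mitochondrial leucyl-tRNA synthetase, and Pa2g4 a growth-regulating nucleic acid-binding protein. The Lars2 region scored 119 at day 8 and 181 at day 4 and was called in all 8 libraries with scores of at least 74.9. The Pa2g4 region scored 103 at day 8 and 91.8 at day 4 and had no call at day 0 or at 8 days off. Whether a summit of those libraries lay just outside the region was not examined here. At Klf4, a factor of monocyte differentiation, a day-4-only region scored 5.88 at day 4, 30.5 at 8 days off and 13.4 at 12 days off, with no call at day 0 or in either day-12 library. At Nfe2, an erythroid and megakaryocyte factor gene, a day-4-only region scored 14.0 at day 4, 11.3 at day 0 and 12.9 at 12 days off. At Bcl2, which blocks apoptosis, a day-8-only region scored 25.2 at day 8, 6.76 at day 0 and 10.7 at day 12.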
